A study of Rattus norvegicus with 20 samples.

Results

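Imprinted genes are transcribed mainly from the copy inherited from 1 parent, under methylation marks that are set in the germ line and kept in the body's cells. Primordial germ cells erase these marks on their way to and in the fetal gonad and later set new ones according to sex, so the fetal testis holds somatic cells with marks beside germ cells that are losing or resetting them. Several imprinted genes act on fetal growth: Igf2 encodes insulin-like growth factor 2, while Cdkn1c and Grb10 encode brakes on cell division and on signalling from the insulin and IGF receptors.

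The genes followed here are 10 such genes chosen by symbol (Igf2, H19, Dlk1, Meg3, Peg3, Cdkn1c, Mest, Grb10, Plagl1 and Ndn) and measured on Affymetrix rat arrays. The platform annotation gave 15 probe sets, of 31042 that were not controls, to 9 of the 10 genes, and none to Peg3. Of the 15 probe sets, 12 passed a filter on low signal, as did 22526 of all probe sets, and they covered the same 9 genes. The 3 that failed were extra Igf2 probe sets that read at most 24 on any array. Where a gene had several tested probe sets, the brightest stood for it.

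The study asked how the fungicide vinclozolin, whose metabolites block the androgen receptor, alters the transcriptome of the developing testis. The 20 arrays form 10 groups of 2, all from Sprague-Dawley rats. In utero, dams were injected daily from E8 to E14 (embryonic days) with vinclozolin at 100 mg/kg/day or with the vehicle DMSO, and testes were taken at E13, E14 and E16, so the E13 testes came from embryos whose exposure had not ended. In culture, E13 gonads with the mesonephros attached were held for 3 days in a medium that contained insulin and transferrin, with vinclozolin at 50 µM in DMSO against DMSO, or with flutamide, an antiandrogenic drug, at 0.5 µM in ethanol against ethanol. The other gonad of each pair was the vehicle control, the mesonephros was removed before RNA was taken, and sex was typed by PCR for Sry. Both arrays of a group are labelled biological replicates, but not as separate animals or as pools. The p-values here reflect only how far such arrays differ, pooled over all 10 groups, which may not be how far animals or litters differ.

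By RefSeq's gene positions (GRCr8), 3 of the genes lie near each other on chromosome 1. Igf2 (207243873 to 207261263) and the non-coding RNA gene H19 (207160175 to 207162851), its neighbour that is read from the other parental copy, are 81.0 kb apart. Cdkn1c (208084801 to 208087680) lies 824 kb from Igf2. On chromosome 6, Dlk1 (134192491 to 134199779) and the non-coding RNA gene Meg3 (134274056 to 134306249), also expressed from opposite parental copies, are 74.3 kb apart. The others are Mest on chromosome 4 (60321814 to 60332288), Grb10 on chromosome 14 (90708653 to 90816399), and Plagl1 (9297066 to 9337394), Ndn (125261059 to 125262658) and Peg3 (76130965 to 76157774) on chromosome 1.

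Promoters for 8 of the 10 genes were found in RefSeq's table (GRCr8); those of H19 and Cdkn1c were not. Since imprinting marks are methyl groups on CpG dinucleotides, the 250 bases before the start site listed there are printed for the Dlk1 and Meg3 pair and for Grb10, the member that passed from E13 to E16 below, 5′ to 3′ on the gene's strand with every CpG in capitals. For Dlk1 and Grb10 this window overlaps the outer edge of the gene as annotated.
Dlk1, chr6:134192347-134192596, plus strand: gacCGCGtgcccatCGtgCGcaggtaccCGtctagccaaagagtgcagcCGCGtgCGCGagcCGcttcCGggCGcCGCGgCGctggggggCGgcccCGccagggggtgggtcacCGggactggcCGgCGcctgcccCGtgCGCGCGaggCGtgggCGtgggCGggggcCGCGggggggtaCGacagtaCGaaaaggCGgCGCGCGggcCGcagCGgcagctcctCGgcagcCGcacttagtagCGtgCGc
Meg3, chr6:134273806-134274055, plus strand: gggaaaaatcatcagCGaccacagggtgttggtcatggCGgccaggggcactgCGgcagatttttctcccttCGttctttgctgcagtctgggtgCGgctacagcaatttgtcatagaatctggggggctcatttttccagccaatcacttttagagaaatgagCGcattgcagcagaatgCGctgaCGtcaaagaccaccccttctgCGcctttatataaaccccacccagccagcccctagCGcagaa
Grb10, chr14:90816388-90816637, minus strand: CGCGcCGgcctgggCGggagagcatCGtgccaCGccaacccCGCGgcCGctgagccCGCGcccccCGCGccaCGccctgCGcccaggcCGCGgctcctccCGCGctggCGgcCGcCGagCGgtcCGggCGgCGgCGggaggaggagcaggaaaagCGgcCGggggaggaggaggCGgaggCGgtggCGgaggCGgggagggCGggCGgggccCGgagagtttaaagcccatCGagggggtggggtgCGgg
The Dlk1 window held 41 CpG, more than in 99% of the 33469 promoters of that table, and the Grb10 window held 38, more than in 98.3%. Meg3 held 10, Ndn 10, Peg3 11, Mest 15, Plagl1 23 and the 2 Igf2 promoters 7 and 15, against a median of 5. Of 3 motifs searched on both strands, the Plagl1 motif GGGGCCCC was found once, in the Peg3 promoter, and in 0.753% of all promoters. The core motif of the insulator protein CTCF was in none of the members' promoters and in 0.0239% of all, and TGTTCT, a steroid receptor half-site, was in none of them and in 17.5% of all. The CTCF motif is so rare in this table that its absence from the members' windows carries no information. Only these promoter windows were searched, not other regions of the loci. No methylation was measured here.

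Taken by the brightest probe set of each, most of the genes were among the brightest probe sets of the fetal testis. That choice favours high percentiles. The other Grb10 probe sets had in utero group means of 105 to 341.6 and 433.6 to 1140.1, against 2541.4 to 3958.9 for the brightest. The second Meg3 probe set had 178.4 to 301.4, against 549.6 to 840 for the first. Over the 12 in utero arrays, Igf2 lay between the 98.9th and 99.6th percentile of its array, and H19, Mest, Cdkn1c, Grb10 and Plagl1 all lay above the 97th. Ndn, a melanoma antigen family gene known from neurons, lay between 95.5 and 97.6. Meg3 lay between 83.5 and 95.7 and Dlk1, a transmembrane protein of the Notch ligand type found on fetal progenitor cells, between 75.3 and 91.2. These percentiles place a probe set within its array and do not compare RNA amounts between genes.

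Igf2 fell within a narrow band on 9 of the 12 in utero arrays and was brighter on 3. In signal intensity, vehicle testes gave 6208 and 4403 at E13, 8220 and 4688 at E14, and 4672 and 4206 at E16 (replicates 1 and 2). Vinclozolin testes gave 6832 and 4578 at E13, 4387 and 5089 at E14, and 4167 and 3716 at E16. The 3 high arrays were replicate 1 of E13 vehicle, E13 vinclozolin and E14 vehicle.

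H19 was highest on replicate 1 of E14 vehicle and of E13 vehicle, followed by replicate 1 of E16 vehicle and of E13 vinclozolin. Its vehicle values were 5859 and 4467 at E13, 7357 and 4244 at E14, and 5599 and 3439.8 at E16. Vinclozolin values were 5485 and 4048, 4618 and 4442, and 3998 and 3787 at the same stages. Over the 12 in utero arrays the log2 values of Igf2 and H19 had a Pearson correlation of 0.874, given as a description, since arrays of a group share a stage and a treatment and all share 1 scaling.

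Dlk1 was highest on the same 3 arrays as Igf2, and Meg3 on replicate 1 of E14 vehicle and of E13 vehicle. Dlk1 read 599 and 291 in vehicle testes at E13, 743 and 307 at E14, and 322 and 385 at E16, and in vinclozolin testes 541 and 285, 335 and 275, and 309 and 309. Meg3 read 906 and 731, 1256 and 424, and 596 and 504 in vehicle, and 703 and 604, 463 and 641, and 605 and 502 with vinclozolin. Their log2 values had a Pearson correlation of 0.748 over the 12 arrays, and replicate 1 of E14 vehicle was the highest array for both.

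Cdkn1c, which encodes the cyclin-dependent kinase inhibitor p57, was lowest at E14 on 3 of the 4 arrays of that stage. Vehicle testes read 4589 and 3008 at E13, 4914 and 2174 at E14, and 5656 and 3271 at E16. Vinclozolin testes read 4499 and 3095, 2388 and 2357, and 4403 and 4609. The fourth E14 array, vehicle replicate 1, was again the exception.

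Mest, a hydrolase-like gene of mesodermal tissue, was mostly higher at E13. Its vehicle values were 5720 and 4624 at E13, 4806 and 4002 at E14, and 4181 and 4509 at E16, and its vinclozolin values 5703 and 4624, 3802 and 4513, and 4831 and 4337. All 4 E13 arrays were above 3 of the 4 E16 arrays, and both E13 replicates numbered 1 exceeded every later array.

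Grb10 showed the most regular stage course. Vehicle testes read 4257 and 3588 at E13, 4457 and 3009.9 at E14, and 3249.7 and 2483 at E16. Vinclozolin testes read 4329 and 3589, 2963 and 3075, and 2558 and 2525. All 4 E13 arrays (3587.8 to 4328.6) lay above all 4 E16 arrays (2482.9 to 3249.7), and of the E14 arrays 3 lay inside the E16 range and vehicle replicate 1 lay above the E13 range.

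Plagl1, a zinc finger transcription factor known to regulate other imprinted genes, was highest on both E14 vinclozolin arrays. It read 3321 and 2988 at E13, 3757 and 3638 at E14, and 1954 and 3699.7 at E16 in vehicle testes, and 3682 and 2492, 4848 and 4479, and 3674 and 2986 with vinclozolin. Ndn read 1368 and 1483, 1912 and 1674, and 1872 and 1552 in vehicle, and 1451 and 1354, 1880.2 and 1463, and 1355 and 1344 with vinclozolin. For both genes 1 or more E16 arrays lay inside the E13 range.

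**Figure D1:**
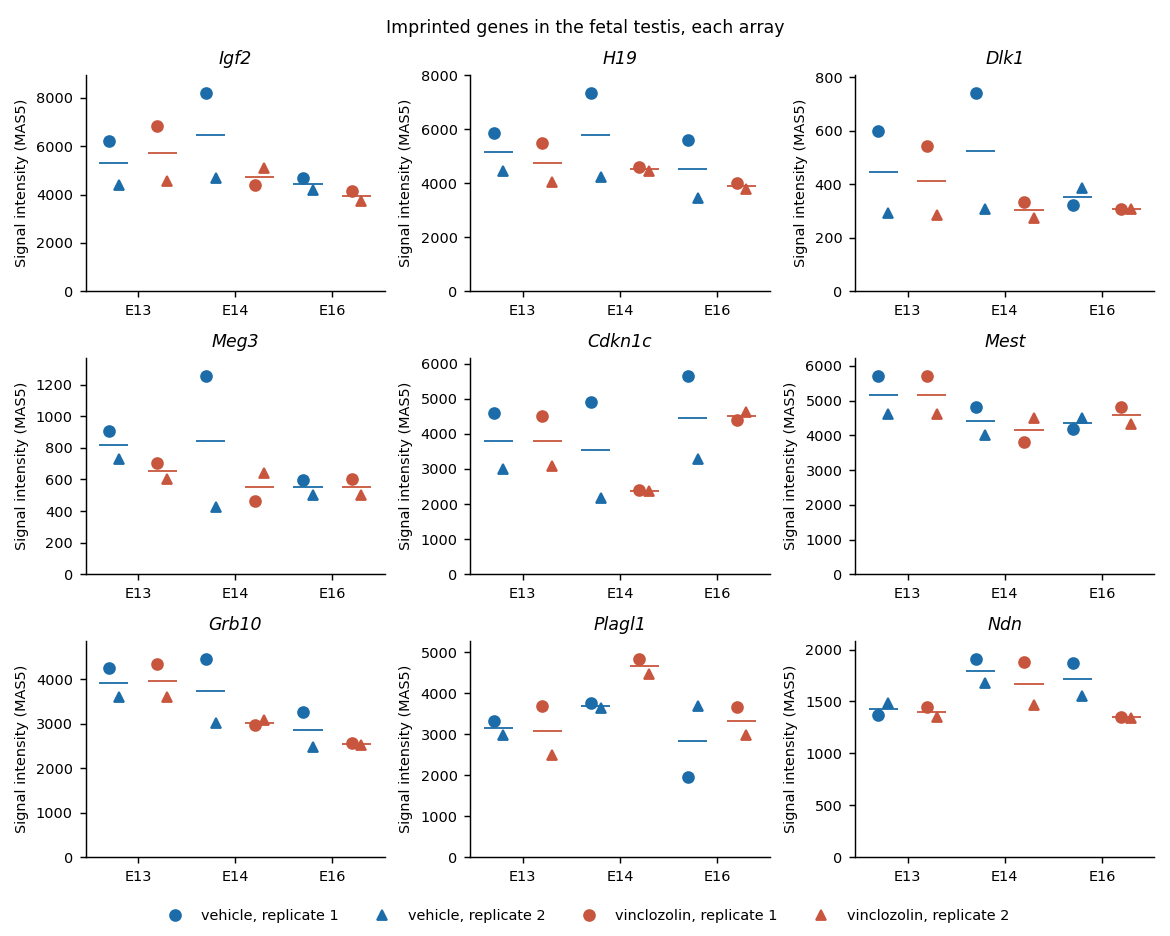
Signal intensity of the 9 imprinted genes on the 12 in utero arrays, by embryonic day (horizontal axis) and treatment (blue vehicle, red vinclozolin), with circles for replicate 1, triangles for replicate 2 and lines at the mean of the 2. Replicate 1 of E14 vehicle is the top array for 6 of the 9 genes, and for Grb10 all E16 points lie below all E13 points.

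The high arrays also stood apart in cell type markers, and they enter every later comparison that uses E13 vehicle, E13 vinclozolin or E14 vehicle. Replicate 1 of E14 vehicle was the highest of the 12 in utero arrays for 6 of the 9 genes (Igf2, H19, Dlk1, Meg3, Grb10 and Ndn). Replicate 1 was above replicate 2 for 9 of 9 genes in E14 vehicle, with a median log2 difference of 0.79 against 0.01 over all genes tested. The same held for 8 of 9 in E13 vehicle (median 0.31, all genes -0.08) and for 9 of 9 in E13 vinclozolin (median 0.44, all genes -0.05). In the other 3 in utero groups it held for 5 to 8 of 9, with medians of 0.02 to 0.24.

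On these 3 arrays the sum of the Sertoli cell markers was lower than on their partners. The sum of the markers of mesonephros and tubule, the tissue attached to the gonad, was higher. The summed intensity of the Sertoli cell markers (7 of 9 tested) was 1814 against 4795 in E13 vehicle, 2313 against 4076 in E13 vinclozolin and 4040 against 12132 in E14 vehicle, replicate 1 first. The summed mesonephros and tubule markers (8 of 10 tested) were 2072 against 1490.0, 1792 against 1278 and 2146 against 995. Emx2 was the brightest of these markers on every array and reached 1460.6, while Pax2, Lhx1, Ret and Cdh6 read at most 94.7. The summed germ cell markers (3 of 10 tested) were also lower, at 248.3 against 324.6, 247.3 against 280.4 and 173.5 against 488.1 in the same order. Not every marker followed its sum, by percentile within the array (replicate 1 first). Clu was higher in E13 vehicle (55.1 against 51.9) and E14 vehicle (64.7 against 55.8). Kit was higher in E13 vehicle (48.9 against 43.7) and E13 vinclozolin (52.2 against 44). Ret was lower in E13 vinclozolin (39.4 against 47.9) and E14 vehicle (32.6 against 38.9). Amh, the Sertoli cell hormone that marks a testis, read 106 and 372 on the 2 E13 arrays against 1485 and 1102 on their partners, and 1554 against 5698 at E14. Xist, the RNA of the inactive X chromosome, read 759 and 896 on the 2 E13 arrays against 20.4 and 17.9 on their partners, and Fos read 1535 on the E14 array against 39.8. Xist was not low on all other arrays: it read 175 and 184 in E14 vehicle, 489.9 on E14 vinclozolin replicate 2 (where Fos read 289) and 168 to 212 in the flutamide culture. In E14 vehicle the summed erythroid markers (8 of 11 tested) were 39795 against 22111, and the adrenal markers (4 of 7 tested) 466 against 95.2. The part of cell makeup or tissue in the members' values was not tested. In bulk RNA, fewer cells of a type and less RNA per cell cannot be told apart.

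**Figure D2:**
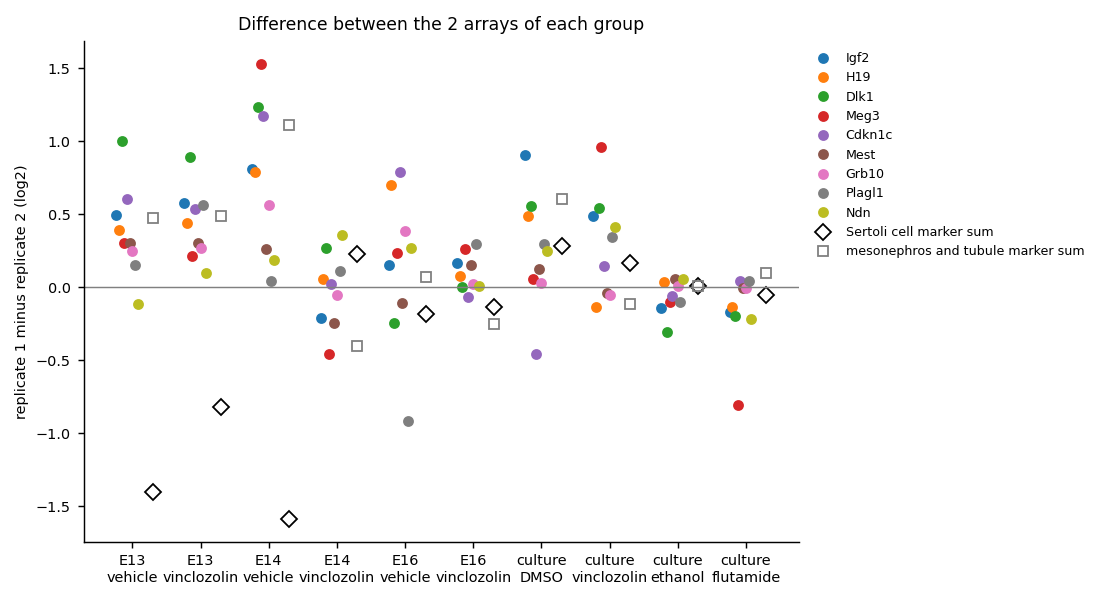
Replicate 1 minus replicate 2 on the log2 scale (vertical axis) in each of the 10 groups (horizontal axis), with a coloured point per imprinted gene, an open diamond for the summed Sertoli cell markers and an open square for the summed mesonephros and tubule markers. In E13 vehicle, E13 vinclozolin and E14 vehicle nearly all genes lie above 0 while the Sertoli cell sum lies below it.

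With group means removed, several of the genes moved together across the in utero arrays. The Pearson correlation of the remaining log2 values was 0.993 for Cdkn1c and Grb10, 0.987 for H19 and Grb10, and 0.986 for H19 and Cdkn1c over 12 arrays. It was 0.854 for Igf2 and H19 and 0.706 for Dlk1 and Meg3. Plagl1 and Ndn were less close, Plagl1 with -0.198 to H19, 0.247 to Igf2 and 0.516 to Mest, and Ndn with -0.237 to Mest, 0.202 to Igf2 and 0.577 to H19. Since 2 arrays remain per group, each pair of points mirrors around 0, and E14 vehicle gives much of the spread. These correlations are descriptions without a test. Without removal of the means, the genes closest to Igf2 among all genes tested were Hoxa5 (0.966), Casp2 (0.959) and Hoxc4 (0.95). Those closest to Grb10 were Cd24 (0.959), Hoxa7 (0.954) and Rab32 (0.953), and those closest to Meg3 were Dynlrb2 (0.948), Rprm (0.931) and Hoxc5 (0.928). Other first places were Fcgr3a for H19 (0.923), Tmem163 for Dlk1 (0.943), Nrep for Cdkn1c (0.931), Nrp1 for Mest (0.942), Zmiz2 for Plagl1 (0.932) and Ilk for Ndn (0.966).

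From E13 to E16 in vehicle testes none of the 9 listed genes passed the test, although Grb10 did under quantile normalization (-0.60, adjusted p = 0.0311 by limma). In limma's test with Benjamini-Hochberg adjustment over all probe sets, 0 of 9 members passed the threshold of 0.05, while 8.55% of all probe sets did, and 1 member (Grb10) had an unadjusted p under 0.05 against 22.7% of all probe sets. Of the 9, 7 were lower and 2 higher, with a median log2 difference of -0.24 against -0.00 over all genes tested. The 2 groups did not overlap for 4 members, Meg3, Mest, Grb10 and Ndn, against 48% of all probe sets. Without the 3 arrays described above, 5 members were lower and 4 higher, with a median of -0.025.

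Grb10 differed by -0.46 on the log2 scale in vehicle testes (SE 0.166, 95% interval -0.808 to -0.108, adjusted p = 0.101 by limma, 2 arrays against 2). In vinclozolin testes the same step passed, at -0.63 (SE 0.166, interval -0.98 to -0.28, adjusted p = 0.0309), the only member of 9 to do so where 6.26% of all probe sets passed and 2.7% fell. An unadjusted p under 0.05 was reached by 1 member and by 20% of all probe sets, and groups were apart for 3 of 9 members (Igf2, H19 and Grb10), against 53.4%. The 2 steps differed by -0.17 (SE 0.235, adjusted p = 1 by limma), so a difference between treatments was not shown. The call in vinclozolin testes was lost without E13 vinclozolin replicate 1 (-0.50, adjusted p = 0.263) and without either E16 vinclozolin array (-0.64 and -0.62, adjusted p = 0.168 and 0.152).

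Averaged over vehicle and vinclozolin arrays (4 against 4, a comparison added after the values were seen), the Grb10 fall from E13 to E16 was -0.54 (SE 0.117, interval -0.792 to -0.296, adjusted p = 0.00363 by limma), to 0.686 of the E13 level. In this comparison 18.7% of all probe sets passed, groups were apart for 23.4%, and 11.6% had all E16 arrays below all E13 arrays as Grb10 did. When each array was left out in turn, the value ran from -0.64 to -0.45 and the adjusted p from 0.00203 to 0.0237. Without the 3 arrays that stood apart it was -0.42 (adjusted p = 0.0278). These values are for the brightest Grb10 probe set only. The comparison over both treatments was not taken for the other Grb10 probe sets, whose log2 values in E13 vehicle had SDs of 1.425 and 1.474. Over the same step the summed mesonephros and tubule markers went from 1278 to 2072 at E13 to 597 to 833 at E16, and the summed stroma and peritubular markers (10 of 11 tested) from 10056 to 10789 to 15855 to 19296. Emx2, the brightest marker in the mesonephros and tubule sum, reached 1460.6 on its highest array. The summed Leydig cell markers (9 of 9 tested, 8 of which rose in vehicle testes) went from 1380.1 to 1574.6 at E13 to 14603 to 25201 at E16, and the erythroid markers from 16863 to 27375 to 28911 to 49659. The Sertoli cell markers went from 1813.8 to 4795.3 at E13 to 7042.5 to 7986.2 at E16, and the macrophage markers from 704.5 to 988.8 to 1092.1 to 1434.1. The adrenal markers went down, from 127.6 to 233.2 to 62.1 to 93.6. The germ cell and endothelium sums overlapped between these stages. The part of any of these in the Grb10 value was not tested.

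The other 8 members did not pass in that comparison. Mest was closest, at -0.21 (SE 0.0993, interval -0.414 to 0.005, adjusted p = 0.169), and it passed under quantile normalization (-0.34, adjusted p = 0.0352). Igf2 was at -0.37 (interval -0.797 to 0.054), Meg3 at -0.40 (-0.964 to 0.171), Dlk1 at -0.29 (-0.848 to 0.273) and H19 at -0.25 (-0.615 to 0.12). Cdkn1c was at 0.24 (-0.219 to 0.7), Ndn at 0.10 (-0.145 to 0.347) and Plagl1 at -0.05 (-0.397 to 0.298). The intervals of Igf2, H19, Dlk1 and Meg3 still allow a fall of the size seen for Grb10, and those of Mest, Plagl1, Ndn and Cdkn1c do not.

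**Figure D3:**
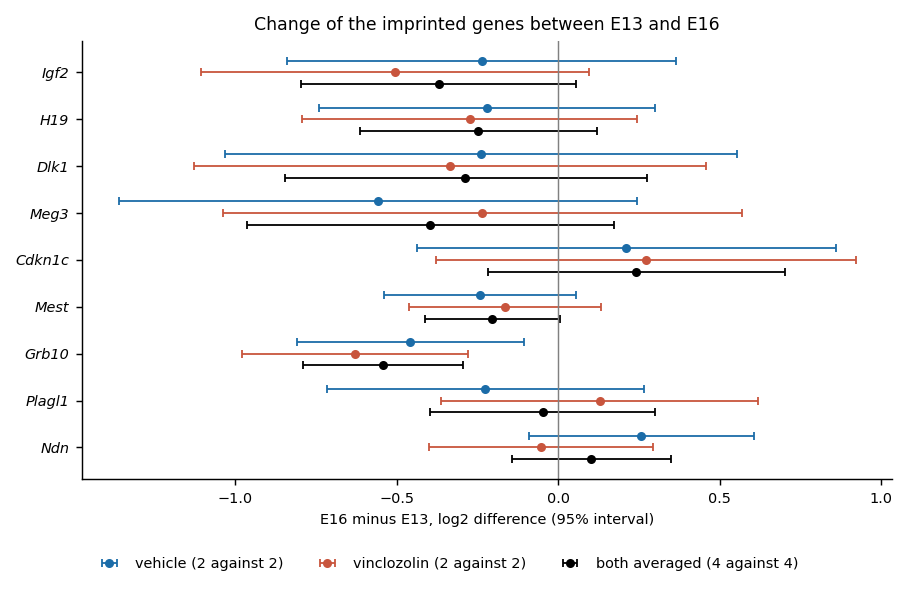
Log2 difference between E16 and E13 (horizontal axis, with 95% intervals from limma) for each imprinted gene, in vehicle arrays (blue, 2 against 2), vinclozolin arrays (red, 2 against 2) and both averaged (black, 4 against 4). The interval for Grb10 lies wholly below 0 in all 3, and those of the other 8 genes reach 0.

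The steps around E14 rested on single arrays. In vehicle testes, 0 of 9 members passed from E13 to E14 (2.93% of all probe sets passed, and 0 members had an unadjusted p under 0.05 in limma, against 21% of all) and 0 of 9 from E14 to E16 (22% of all probe sets passed, and 1 member, Grb10, had an unadjusted p under 0.05, against 35.9% of all). Groups were apart for 2 of 9 members from E13 to E14, Plagl1 and Ndn, against 47.3% of all probe sets, and for Igf2 alone from E14 to E16, against 59.5%. Without E14 vehicle replicate 1, the rise of Cdkn1c from E14 to E16 went from 0.39 to 0.98 (adjusted p = 0.0386), while without replicate 2 Meg3 (-1.17, adjusted p = 0.0346) and Grb10 (-0.65, adjusted p = 0.0213) passed instead. Without E16 vehicle replicate 2, Plagl1 passed at -0.92 (adjusted p = 0.0138).

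Averaged over both treatments, 3 of 9 members passed from E14 to E16, where 41.5% of all probe sets did. Cdkn1c rose by 0.66 (SE 0.217, adjusted p = 0.0227), and Plagl1 (-0.47, SE 0.164, adjusted p = 0.0289) and Grb10 (-0.31, SE 0.117, adjusted p = 0.0456) fell. All 3 calls were lost when only the in utero arrays were fitted (adjusted p = 0.0581, 0.0613 and 0.104) and each was lost when any of several single arrays was left out. From E13 to E14, 0 of 9 passed where 25.1% of all probe sets did, with Mest at -0.27 (adjusted p = 0.0569), Plagl1 at 0.42 (0.0682) and Ndn at 0.28 (0.0844) closest.

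The 3 Grb10 probe sets all had lower group means at E16 than at E13 or E14 but differed in size and, on other steps, in direction. From E13 to E14 in vehicle testes the brightest was at -0.09 and the other 2 at 0.92 and 0.85 (adjusted p = 0.285 and 0.293 by limma). From E14 to E16 in vehicle testes, the other 2 fell by 1.52 (SE 0.479, adjusted p = 0.0318) and 1.37 (SE 0.453, adjusted p = 0.0401) on the log2 scale, against -0.36 (adjusted p = 0.124) for the brightest. The first of them read 425 and 258 at E14 and 98.3 and 112 at E16, and the second 1176 and 1104 against 396 and 472. Both spread widely at E13, at 354 and 75.6 and at 1302 and 295, with replicate 1 the higher. The second Meg3 probe set, at 355 and 243 in E13 vehicle and 155 and 202 in E16 vehicle, differed by -0.68 (SE 0.318, adjusted p = 0.212), near the -0.56 of the first.

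Peg3 itself had no probe set, but its antisense non-coding RNA Apeg3 (chromosome 1, 76154484 to 76155415, inside Peg3) had 4 and is given here although it was not on the list and was singled out after its values were seen. Its brightest probe set read 5993 and 6702 in E13 vehicle, 3365 and 3529.5 at E14, and 4257 and 3182 at E16. With vinclozolin it read 5922 and 6286, 2497 and 4487, and 3151 and 3214, so all 4 E13 arrays lay above all 8 later ones. Of all probe sets, 11.6% had all E16 arrays below all E13 arrays. The share for all later arrays together was not counted.

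Apeg3 fell from E13 to E16 by 0.78 on the log2 scale in vehicle testes (SE 0.196, adjusted p = 0.019 by limma) and from E13 to E14 by 0.88 (adjusted p = 0.0296). Of all probe sets, 8.55% passed from E13 to E16 and 2.93% from E13 to E14. In vinclozolin testes the step to E16 was -0.94 (adjusted p = 0.00777 by limma), where 6.26% of all probe sets passed. Over both treatments it was -0.86 (SE 0.138, adjusted p = 0.000353 by limma), where 18.7% passed. The single-treatment calls were lost when some arrays were left out, but the call over both treatments held with each array left out (-0.96 to -0.75, adjusted p of 0.000363 to 0.00292) and without the 3 arrays that stood apart (-0.92, adjusted p = 0.00321). The other 3 Apeg3 probe sets passed in no comparison with single treatments, although all 3 had unadjusted p under 0.05 in the vinclozolin step from E13 to E16 (0.0102, 0.0322 and 0.0101). The strand and position of these probes were not used here.

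Vinclozolin in utero gave no call for any imprinted gene. By limma 0 of 9 members passed at E13, E14, E16 or in the mean over stages, as did 0%, 0.00444%, 0% and 0% of all probe sets. Unadjusted p under 0.05 was reached by 0 of 9 members in each, against 1.78%, 5.5%, 6.69% and 4.1% of all probe sets. A moderated F test of whether the effect differed between stages called 0 of 9 members and 0% of all probe sets, and 0 members had an unadjusted p under 0.05.

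At E13 the effects were near 0, with 3 members higher and 6 lower and a median of -0.02. Meg3 had the farthest value, -0.31 (SE 0.38, interval -1.116 to 0.489), and was the 1 member whose groups did not overlap, against 24.4% of all probe sets. Igf2 was at 0.10 (SE 0.285), Grb10 at 0.01 (SE 0.166) and Mest at -0.00 (SE 0.14).

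At E14, 8 of 9 members were lower with vinclozolin, with a median of -0.30 against 0.01 over all genes. Dlk1 was at -0.63 (SE 0.375, interval -1.424 to 0.162), Cdkn1c at -0.46 (SE 0.307), Meg3 at -0.42 (SE 0.38) and Igf2 at -0.39 (SE 0.285), each with an adjusted p of 0.893 or more by limma. Vehicle and vinclozolin arrays overlapped for all of these, and Plagl1 alone, at 0.33 and higher with vinclozolin, had groups apart among the brightest probe sets, against 27.1% of all probe sets. The other 2 Grb10 probe sets also had groups apart, at -1.01 (SE 0.479, unadjusted p = 0.0503, adjusted p = 0.888 by limma) and -0.52 (SE 0.453, adjusted p = 0.911). Vehicle arrays of the first read 425 and 258 and vinclozolin arrays 218 and 111, and those of the second 1176 and 1104 against 674 and 929. With each array left out in turn, Plagl1 stayed at 0.28 to 0.39, and the extremes of Ndn came from the vinclozolin arrays. The values of the other brightest probe sets rested on vehicle replicate 1. Without it, Dlk1 was at -0.02, Igf2 at 0.01, Grb10 at 0.00, Cdkn1c at 0.13 and Meg3 at 0.35, and 7 of 9 members were higher. Without vehicle replicate 2 instead, Dlk1 was at -1.25, Meg3 at -1.18 and Cdkn1c at -1.05. At E14 the summed Sertoli cell markers were 12756 and 10903 in vinclozolin testes, beside 4040 and 12132 in vehicle.

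At E16, 2 days after the last injection, 5 members were lower and 4 higher, with a median of -0.16. Ndn had the smallest p, at -0.33 (SE 0.165, interval -0.681 to 0.014, unadjusted p = 0.0589, adjusted p = 0.755 by limma). Its vinclozolin arrays (1355 and 1344) lay below both vehicle arrays (1872 and 1552), and Igf2 and Dlk1 also had groups apart, 3 of 9 members against 39.2% of all probe sets. Plagl1 was at 0.30 (SE 0.232), and turned to -0.16 without vehicle replicate 1 and to 0.76 without replicate 2.

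Averaged over the 3 stages, 8 of 9 members were lower and the median was -0.16, against -0.01 over all genes. Under quantile normalization 7 of 9 were lower, since Mest turned to 0.04, and without the 3 arrays that stood apart 5 of 9 were lower with a median of -0.034. Single values were -0.30 for Dlk1 (interval -0.757 to 0.159), -0.24 for Meg3 (-0.703 to 0.223), -0.20 for H19 (-0.498 to 0.102) and -0.16 for Igf2 (-0.503 to 0.192). The interval was tightest for Mest, -0.174 to 0.169 around -0.00, and Plagl1 was at 0.19 (-0.092 to 0.475). The intervals of Dlk1 and Meg3 allow a fall by more than 0.70 on the log2 scale, so effects of that size are not shown to be absent.

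**Figure D4:**
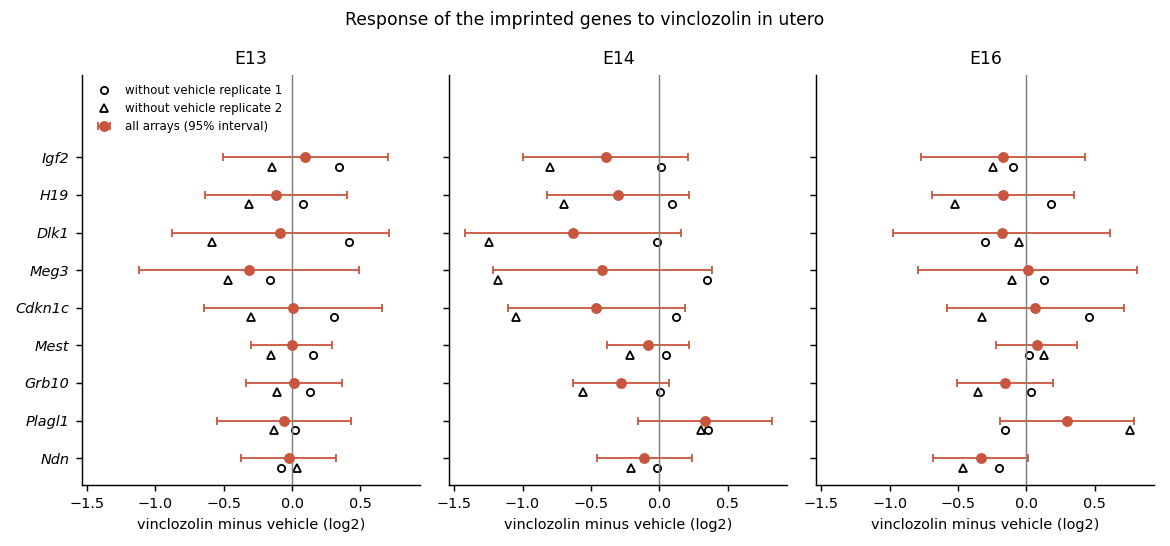
Vinclozolin minus vehicle on the log2 scale (horizontal axis) for each imprinted gene at E13, E14 and E16, with 95% intervals from limma (red) and the value without vehicle replicate 1 (open circle) or without vehicle replicate 2 (open triangle). At E14 the circles lie near or above 0 and most triangles lie far to the left, while every red interval includes 0.

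In culture, the vinclozolin and DMSO arrays overlapped for the brightest probe set of each of the 9 genes. The second Meg3 probe set had groups apart, at 85.3 and 85.5 with DMSO and 132 and 88.3 with vinclozolin (0.30, SE 0.318, adjusted p = 1 by limma). By limma 0 of 9 members passed, as did 0% of all probe sets, and 0 members had an unadjusted p under 0.05 against 2.71% of all. Groups were apart for 28.8% of all probe sets. Igf2 read 3309.6 and 1762 with DMSO and 3218 and 2286 with vinclozolin, a log2 difference of 0.17 (SE 0.285, interval -0.436 to 0.768). Grb10 read 2167 and 2124 against 2092 and 2173 (-0.01, SE 0.166), and Cdkn1c 5365 and 7358 against 5967 and 5385 (-0.15, SE 0.307). The member farthest from 0 was H19, at 0.26 (SE 0.246, interval -0.26 to 0.779).

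Flutamide also gave no call, 0 of 9 members and 0% of all probe sets by limma. One member, Mest, had an unadjusted p under 0.05 (1 of 9, against 2.19% of all probe sets). Mest read 1881 and 1808 with ethanol and 1412 and 1418 with flutamide, without overlap, a difference of -0.38 (SE 0.14, interval -0.675 to -0.081, unadjusted p = 0.0156, adjusted p = 1). Groups were apart for 5 members, Dlk1, Meg3, Mest, Grb10 and Plagl1, against 38.1% of all probe sets. Grb10 read 1399 and 1387 against 1204 and 1206 (-0.21, SE 0.166), while its other 2 probe sets were at 0.03 and 0.18. Meg3 read 934 and 1004 against 493 and 876 (-0.55, SE 0.38), or -0.14 without the lower flutamide array, and its second probe set was at 0.13 with groups apart.

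For vinclozolin and flutamide, both cultured at 1 concentration each and in different vehicles, the members' values stand side by side and were not compared. Mest was at -0.02 with vinclozolin and -0.38 with flutamide, Meg3 at -0.15 and -0.55, Dlk1 at -0.04 and 0.34, and Plagl1 at -0.08 and 0.19.

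The cultured testes differed from those in utero in the level of several members, but the 3 sets of arrays were deposited at different scales (their trimmed means were 210.1 for in utero arrays, 218.1 for vinclozolin culture arrays and 107 for flutamide culture arrays), so set and culture cannot be told apart and no test was made. Brought to the trimmed mean of the in utero arrays, Igf2 read 1697.1 to 3188.1 on the 4 arrays of the vinclozolin culture, below all 12 in utero arrays (3715.9 to 8220.1), and 3691.4 to 4470.8 in the flutamide culture, within or just below their range. Grb10 read 2014.8 to 2092.8 in the vinclozolin culture, below all 12 in utero arrays (2482.8 to 4456.8), and 2362.1 to 2746.4 in the flutamide culture, below all E13 arrays.

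Cdkn1c stood the other way. It read 5167.8 to 7087.9 in the vinclozolin culture, above all 4 E13 arrays, and 9253.5 to 9845.2 in the flutamide culture, above all 12 in utero arrays, whose highest was 5655.4. Meg3 read 967.8 to 1970.5 in the flutamide culture, above all E13 and all E16 arrays, and 473.8 to 936.9 in the vinclozolin culture. The second Meg3 probe set did not show this: it read 250.2 to 281.8 in the flutamide culture, inside the range of the E13 arrays (242.9 to 354.9), and 82.2 to 127.5 in the vinclozolin culture, below all 12 in utero arrays (154.6 to 438.3). Mest (2771.9 to 3690.8) and Ndn (1023.7 to 1192.9) lay below all in utero arrays in the flutamide culture only, and in the vinclozolin culture read 3938.9 to 4299.9 and 1139.5 to 1520.7. Plagl1 lay below all E13 arrays in the vinclozolin culture (1834.4 to 2432.3) and H19 likewise (2623.6 to 3896.1). The ratio of 3′ to 5′ signal of the actin control, a measure of RNA quality, was 9.08 to 11.1 in the flutamide culture and 1.73 to 3.90 elsewhere; its part in these levels was not tested.

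**Figure D5:**
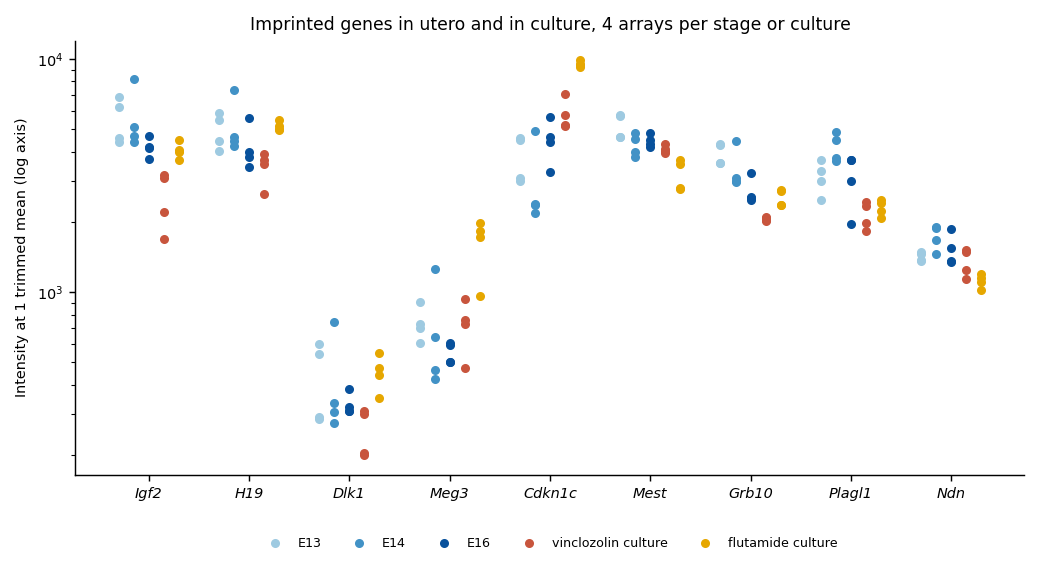
Signal intensity brought to 1 trimmed mean (vertical log axis) of each imprinted gene on the 4 arrays of each stage in utero (blues), of the vinclozolin culture (red) and of the flutamide culture (yellow), control and treated arrays together. The flutamide culture arrays lie above all others for Cdkn1c, and the vinclozolin culture arrays lie below all in utero arrays for Igf2 and Grb10.

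Other imprinted genes passed at shares that can be read against those of all probe sets, 8.55% from E13 to E16, 2.93% from E13 to E14 and 22% from E14 to E16 in vehicle testes and 6.26% from E13 to E16 with vinclozolin. The lists count 1 probe set per gene. Counted in that way over 11677 genes tested, the shares were 11%, 3.33%, 25.5% and 8.45% in the same order. Of 25 other paternally expressed genes, 16 had a probe set and 13 were tested. From E13 to E16 in vehicle testes 1 of them rose, Mcts2 (0.58, SE 0.169, adjusted p = 0.0409), with a median of -0.085 over the list, and from E13 to E14 1 fell, Zdbf2 (-1.31, SE 0.287, adjusted p = 0.0282). Of 36 other maternally expressed genes, 31 had a probe set and 21 were tested. Cd81, a tetraspanin gene beside the Igf2 and Cdkn1c cluster, rose from E13 to E16 in vehicle (0.52, SE 0.12, adjusted p = 0.0118) and in vinclozolin testes (0.44, adjusted p = 0.0373). Igf2r, whose product carries Igf2 to the lysosome, fell from E14 to E16 in vehicle (-0.56, SE 0.121, adjusted p = 0.00471) and from E13 to E16 with vinclozolin (-0.43, adjusted p = 0.0425). From E14 to E16, 3 of 13 paternally and 3 of 21 maternally expressed genes passed, where 22% of all probe sets did.

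Of 17 tested genes that keep or erase imprints, 3 fell from E13 to E16 in vehicle testes. These were Ctcf, the insulator protein of the Igf2 and H19 locus (-0.57, SE 0.133, adjusted p = 0.013), the histone methyltransferase gene Ezh2 (-0.62, SE 0.173, adjusted p = 0.0346) and Tet3, which oxidises methylcytosine (-1.05, SE 0.3, adjusted p = 0.0377). The median of the list was -0.305, and 8.55% of all probe sets passed. In vinclozolin testes 0 of 17 passed over the same step by limma, where 6.26% of all probe sets did, and the difference between treatments was not tested for this list. From E14 to E16 in vehicle testes, where 22% of all probe sets passed, 3 of the 17 rose and 5 fell, among them Tet3 (-1.67), Ehmt2 (-1.17) and the methyltransferase gene Dnmt3a (-1.43), all of which fell, and the Polycomb genes Suz12 (1.10) and Eed (0.47), which rose.

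The genes around Igf2 signalling moved in both directions while Igf2 itself did not pass. Of 16 tested, 3 rose and 3 fell from E13 to E16 in vehicle testes, where 8.55% of all probe sets passed. Those that rose were Igfbp7 (2.41, SE 0.247, adjusted p = 1.33e-05), Igfbp6 (1.16, SE 0.232, adjusted p = 0.00451), whose product binds IGFs outside the cell, and the growth factor gene Igf1 (1.39, SE 0.251, adjusted p = 0.00226). Those that fell were the receptor gene Igf1r (-0.81, SE 0.212, adjusted p = 0.0239) and the RNA-binding protein genes Igf2bp1 (-1.42, SE 0.34, adjusted p = 0.0152) and Igf2bp3 (-0.92, SE 0.15, adjusted p = 0.00101), whose products bind Igf2 mRNA among others. In vinclozolin testes 3 rose and 5 fell, where 6.26% of all probe sets passed, with Igfbp7 at 2.43 and Igf2bp3 at -1.12. In all comparisons of vinclozolin or flutamide with vehicle, 0 genes of these 4 lists passed by limma, where at most 0.00444% of all probe sets did.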

How the data were processed

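Signal intensities of 20 arrays were used as deposited by the authors, as probe set signals made with GCOS and MAS5, per the submitters' processing notes (versions and scaling target not given in the sources used here). By platform annotation, 20826 of the 31042 non-control probe sets had 1 gene symbol, 436 several and 9780 none, and 57 of 31099 were controls. The deposited intensities had trimmed means (2% off each end) of 210.1 for in utero arrays, 218.1 for vinclozolin culture arrays and 107 for flutamide culture arrays.

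Values were taken as log2(intensity + 16), so folds of dim probe sets are understated. Probe sets at or above the 40th percentile on at least 2 arrays were kept (22526). One limma model (limma 3.58.1, R 4.3.3) held all 10 groups, with 10 residual and 6.76 prior degrees of freedom and a median SE of 0.244; tests were two-sided with Benjamini-Hochberg adjustment over all 22526 at 0.05. Precision is limited by having 2 arrays per group. Scripts were tested on simulated data.

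Every probe set of the listed symbols was reported, and the one of highest mean log2 stood for its gene. Counts of members and of listed genes thus take 1 probe set per gene, while shares of all probe sets take every one tested. From other lists, up to 4 genes that rose and 4 that fell were named by smallest p, and the nearest genes are those of highest Pearson correlation over the 12 in utero arrays. The members and lists were chosen with earlier results of these data known. Alternatives were quantile normalization, a pseudocount of 1 or 64, no filter, smaller sets of arrays, a replicate block, and each array left out.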

Additional observations from a re-analysis of the deposited data

How the results depend on the processing

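Replicate numbers are shared across groups, but the labels do not say that they pair arrays. The correlation of same-numbered deviations was 0.602 at E13, -0.055 at E14, -0.112 at E16, 0.115 for cultures with vinclozolin and 0 for those with flutamide, so no common pairing by number was taken. With the number as a replicate block, 2314 probe sets passed for E16 minus E13 in vehicle, 1360 for E14 minus E13, 5881 for E16 minus E14 and 1668 for the vinclozolin step, and 3 and 1 for vinclozolin at E14 and E16.

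Counts of all probe sets called moved most with the arrays fitted. For vehicle E16 minus E13 (1925) they were 998 with in utero arrays only, 268 with only the arrays compared, 1055 without the 3 arrays that stood apart and 848 to 1574 with each array left out. For E14 minus E13 (659) they were 419 with no filter, 15, 0 and 364 in the same order of array sets, and 71 to 746. For E16 minus E14 (4957) they were 3075 in utero only, 1796 with only the arrays compared and 2846 to 2983. For the vinclozolin step (1410) they were 654 in utero only, 786 without the 3 arrays and 463 to 855. Over both treatments, E16 minus E13 (4223) gave 2767 without the 3 arrays and 2748 to 3997, and E14 minus E13 (5643) gave 3654 to 6302. For vinclozolin against vehicle, E13 (0) gave 2 without the 3 arrays and 0 to 4. E14 (1) gave 0 with a pseudocount of 1, with only the arrays compared and without the 3 arrays, and 0 to 272. E16 (0) gave 5 with a pseudocount of 1 and 0 to 28, the mean of stages (0) 1 with a pseudocount of 64 and 0 to 9, and the F test 0 to 1. Flutamide (0) gave 4 with a pseudocount of 1.

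Members called also moved. Quantile normalization gave 1 for vehicle E16 minus E13 (Grb10, -0.60, adjusted p = 0.0311 by limma), 1 for E16 minus E14, and 2, 2 and 5 for the 3 steps over both treatments (E16 minus E13, E14 minus E13, E16 minus E14). Without the 3 arrays, E16 minus E14 in vehicle gave 1 and the vinclozolin step 0. In utero arrays only gave 0 for the vinclozolin step and 0 for E16 minus E14 over both treatments. With each array left out, the counts were 0 to 2 for vehicle E16 minus E14, 0 to 1 for the vinclozolin step, and 0 to 3 for both E14 steps over both treatments. Of 1750 differences of the members and Apeg3 recomputed under 29 alternatives, 66 changed their call, and 142 changed sign without a call either way. The cause was not tested.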
